A study of Mus musculus with 6 samples.

Results

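Immunoglobulin transcripts were examined in infarcted mouse myocardium, the heart muscle wall after a heart attack. All genes of the deposited table were taken whose symbol begins with Ighv, Igkv, Iglv, Ighg, Igha, Ighd, Ighe, Ighj, Igkj, Iglj or Iglc, together with Ighm, Igkc and Jchain. These were 203 of 16205 rows. They comprised 85 heavy variable, 87 kappa variable and 3 lambda variable segments, 7 heavy and 4 light constant genes, 12 joining segments, 4 heavy diversity segments and Jchain. In mm10, 100 of them lay on chromosome 12 between 113254830 and 116000461, 93 on chromosome 6 between 67609713 and 70726966, and 9 on chromosome 16 between 19061618 and 19260859. Jchain lay on chromosome 5, from 88519809 to 88527891 on the minus strand.

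The series set 3 libraries of mice labelled ITIH5 knockdown (ITIH5KD) against 3 libraries of wild-type mice (WT). In both groups the left anterior descending coronary artery had been tied off and the myocardium taken 7 days later. The study asked whether ITIH5, a secreted protein that binds the matrix sugar hyaluronan, influences fibrosis after infarction through the immune response. The sources used here do not give the knockdown method, the cells it acted in, or the strain, sex and age of the mice. The labels do not state that each library is a different mouse, so a p-value here reflects library-to-library spread that may be technical.

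Each antibody is built from paired heavy and light chains. Developing B cells join 1 variable segment, a diversity segment in the heavy chain, and a joining segment into a variable domain, which recognises the antigen, and place it before a constant gene, which sets the class. A B cell and its progeny keep that choice of variable segments, so the segments used in a tissue reflect which B cells are present. B cells first make IgM and IgD, may later switch to IgG or IgA, and secrete large amounts once they become plasma cells. In mouse hearts, B cells are found in the vessels, in the muscle wall and in the fat around the heart.

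Itih5 (chromosome 2, 10153571 to 10256529, plus strand) checks the labels. Its level was 18.4, 10.5 and 19.96 in the ITIH5KD libraries, against 9.73, 13.1 and 17.2 in the WT libraries. The groups overlapped and the log2 difference was 0.26 (SE 0.27, limma adjusted p = 0.645, n = 3 each), so knockdown was not seen in this transcript. ITIH5KD below therefore means the libraries labelled ITIH5 knockdown. Levels are the authors' deposited values, on a scale close to TPM, a length-corrected share of all transcripts, whose columns summed to between 901563 and 1159657. They moved in steps of 0.889 to 1.163, and a value near 1 step is at the limit of what could be read. The table gives no read counts, so depth is unknown. Of the 203 members, 123, 112 and 164 rounded to at least 1 step in ITIH5KD replicates 1, 2 and 3, against 165, 140 and 192 in WT replicates 1, 2 and 3. ITIH5KD replicate 3 stood apart from ITIH5KD replicates 1 and 2 in most of what follows, and values without it are given where they change a call.

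A set of 4 variable segments recurs in the results, and their germline sequences show what was counted. In mice, a heavy chain made with Ighv11-2 paired with a kappa chain made with Igkv14-126, and one made with Ighv12-3 paired with Igkv4-91, are the known germline pairings that bind phosphatidylcholine. They are a hallmark of B-1a cells, an innate-like B cell population of the body cavities that makes natural IgM. All 4 fall under the rule for named segments (the 12 most abundant of the heavy and of the kappa class), but the pairing was singled out after their values were seen. Bulk levels per gene do not show which heavy and kappa chains came from the same cell. Partner and pair below therefore mean the known pairing, and neither pairing nor B-1a cells were observed here. The coding variable exon is given 5′ to 3′ on the gene's strand, from GENCODE M21 on mm10, whole for Igkv14-126 (298 bases) and as the last 300 bases of 307, 310 and 309 for Ighv11-2, Ighv12-3 and Igkv4-91. Capitals mark the stretch from the last in-frame cysteine codon to the end of the segment, where the germline part of the antigen-contacting CDR3 loop begins. Ighv11-2 is chr12:114048241-114048540 (minus), Ighv12-3 chr12:114366521-114366820 (minus), Igkv14-126 chr6:67896345-67896642 (plus) and Igkv4-91 chr6:68768555-68768854 (minus).
Ighv11-2: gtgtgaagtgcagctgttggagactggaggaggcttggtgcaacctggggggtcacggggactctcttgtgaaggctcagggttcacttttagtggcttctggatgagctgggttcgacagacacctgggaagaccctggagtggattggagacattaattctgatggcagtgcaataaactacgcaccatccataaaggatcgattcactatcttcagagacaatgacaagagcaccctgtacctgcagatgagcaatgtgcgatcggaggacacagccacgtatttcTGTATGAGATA
Ighv12-3: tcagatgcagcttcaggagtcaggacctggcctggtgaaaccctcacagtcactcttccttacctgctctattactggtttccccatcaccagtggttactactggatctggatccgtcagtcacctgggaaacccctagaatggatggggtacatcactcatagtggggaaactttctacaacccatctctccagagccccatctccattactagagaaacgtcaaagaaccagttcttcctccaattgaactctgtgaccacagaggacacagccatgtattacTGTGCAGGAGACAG
Igkv14-126: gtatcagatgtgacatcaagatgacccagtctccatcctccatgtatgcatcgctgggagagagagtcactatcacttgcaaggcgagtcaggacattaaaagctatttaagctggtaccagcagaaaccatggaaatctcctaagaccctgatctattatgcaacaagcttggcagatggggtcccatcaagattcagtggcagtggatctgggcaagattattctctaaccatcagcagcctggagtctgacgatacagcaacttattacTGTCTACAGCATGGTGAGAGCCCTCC
Igkv4-91: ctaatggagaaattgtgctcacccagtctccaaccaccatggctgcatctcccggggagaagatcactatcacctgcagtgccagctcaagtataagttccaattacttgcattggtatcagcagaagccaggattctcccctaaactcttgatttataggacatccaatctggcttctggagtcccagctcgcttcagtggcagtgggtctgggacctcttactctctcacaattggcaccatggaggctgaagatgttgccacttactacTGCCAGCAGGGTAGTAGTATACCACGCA
The heavy segments were 66.8% identical to each other and the kappa segments 68.4%. Ighv12-3 and Igkv14-126 shared no run of 50 bases with any other annotated coding segment. Igkv4-91 shared 5.2% of its 50-base windows. Ighv11-2 shared 52.3%, all with Ighv11-1, which stood at 0.08, 0 and 0 in the ITIH5KD libraries, against 0, 0 and 6.54 in the WT libraries. Reads within such shared stretches could be credited to either copy.

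Immunoglobulin transcripts were less abundant in 2 of the 3 ITIH5KD libraries than in any WT library. Summed over all members, the level was 1428.5, 1137.0 and 4336.4 in the ITIH5KD libraries, against 5092.8, 3420.4 and 7764.2 in the WT libraries. ITIH5KD replicates 1 and 2 lay below every WT library, while ITIH5KD replicate 3 lay among them. In a bulk sample, fewer B lineage cells and less immunoglobulin RNA per cell cannot be told apart. The median log2 difference (ITIH5KD minus WT, on log2 of value plus 1) was -0.64 over all 203 members, against 0.01 over all 16193 genes with a value above 0. It was -1.49 over the heavy constant genes, -1.08 over the light constant genes and -0.90 over the joining segments. Over both the heavy variable and the kappa variable segments it was -0.58.

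Of the 203 members, 166 had a mean of at least 1 and entered the limma fit over 14025 genes, and 37 did not. After Benjamini-Hochberg adjustment 0 of the 166 passed 0.05, as did 0.0% of all tested genes. At an unadjusted p under 0.05, 26 members were lower in ITIH5KD (15.7%, against 6.55% of all tested genes). By the same threshold 1 member was higher (0.602%, against 8.29%). The background depended on the scale. With the columns scaled to plain TPM, 27 members were lower and 1 higher of 168, against 1398 lower and 458 higher of 14087 genes. The split moved with the libraries used, over the members and over all tested genes. Without WT replicate 3 it was 14 lower and 7 higher of 150 members, against 403 and 655 of 14365 genes. Without ITIH5KD replicate 2 it was 22 lower and 6 higher of 168 members, against 995 and 1383 of 14019 genes. The ITIH5KD and WT values did not overlap for 16 members that were lower (9.64%, against 9.88% of all tested genes), which is close to the background. They did not overlap for 1 member that was higher (0.602%, against 12.6%). Variable, joining and constant rows are read from the same messenger RNAs and are not independent of each other. Of the 203 members, 98 had their highest value in WT replicate 3. For 152, ITIH5KD replicate 1 or 2 held the lowest value or tied for it, ties at 0 with WT libraries included. Neither count was made over all genes.

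Among the constant genes the separation was widest for Ighm, the heavy constant gene of IgM (chromosome 12, 113418558 to 113422730, minus strand). Ighm stood at 45.1, 54.4 and 446 in the ITIH5KD libraries, against 728, 623.5 and 1170 in the WT libraries. All ITIH5KD libraries were below all WT libraries, and ITIH5KD replicate 3 was the nearest to them. The log2 difference was -2.96 (SE 0.82, limma adjusted p = 0.296, n = 3 each). Without ITIH5KD replicate 3 it was -4.00 and passed (limma adjusted p = 0.00783). Ighd, the constant gene of IgD, which naive B cells carry beside IgM, stood at 5.32, 4.65 and 24.95 in the ITIH5KD libraries, against 24.5, 13.97 and 52.7 in the WT libraries. ITIH5KD replicates 1 and 2 were the lowest and replicate 3 fell within the WT range (log2 difference -1.49, SE 0.67, limma adjusted p = 0.349).

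Igha, the constant gene of IgA, the class of mucosal secretions, was the one heavy constant gene with a higher mean in ITIH5KD (chromosome 12, 113254830 to 113260236, minus strand). It stood at 166, 129 and 292 in the ITIH5KD libraries, against 47.6, 58.6 and 190 in the WT libraries. ITIH5KD replicate 3 was the highest, but WT replicate 3 lay above ITIH5KD replicates 1 and 2, so the groups overlapped (log2 difference 1.18, SE 0.53, limma adjusted p = 0.351, 95% interval -0.083 to 2.43).

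The 4 IgG genes encode the classes that dominate antibody in blood after immunisation, and 3 of them were highest by far in a single library. Ighg2c stood at 7.71, 14.3 and 70.9 in the ITIH5KD libraries, against 260, 11.6 and 53.3 in the WT libraries. Ighg2b stood at 1.49, 4.76 and 19.96 in the ITIH5KD libraries, against 50.1, 8.19 and 17.6 in the WT libraries. WT replicate 1 was highest for both, and the other 2 WT libraries lay within the ITIH5KD range. Ighg3 was at most 2.99 in the ITIH5KD libraries, against 23.6 in WT replicate 1 and at most 1.86 in the other WT libraries. Ighg1 stayed between 1.27 and 1.995 in the ITIH5KD libraries and between 1.85 and 5.90 in the WT libraries. Their log2 differences ran from -0.90 to -1.66, with limma adjusted p between 0.318 and 0.555.

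Igkc, the only kappa constant gene (chromosome 6, 70726435 to 70726966, plus strand), had the highest level of all members. It stood at 478, 441 and 1586 in the ITIH5KD libraries, against 1778, 1295 and 2043 in the WT libraries. ITIH5KD replicates 1 and 2 were far below the WT range and replicate 3 within it (log2 difference -1.27, SE 0.48, limma adjusted p = 0.313). The lambda constant genes Iglc1, Iglc2 and Iglc3 ran from 1.60 to 39.9 in the ITIH5KD libraries and from 11.2 to 46.9 in the WT libraries, with log2 differences of -0.89, -0.89 and -1.78. The kappa share of the summed light constant level was 95.1%, 96.3% and 94.8% in the ITIH5KD libraries, against 96.5%, 96.1% and 95.1% in the WT libraries, so the ranges overlapped. Jchain, which links IgM and IgA into polymers, stood at 55.5, 44.0 and 153.7 in the ITIH5KD libraries, against 108, 103 and 180 in the WT libraries. Its groups overlapped (log2 difference -0.80, SE 0.46, limma adjusted p = 0.419).

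**Figure D1:**
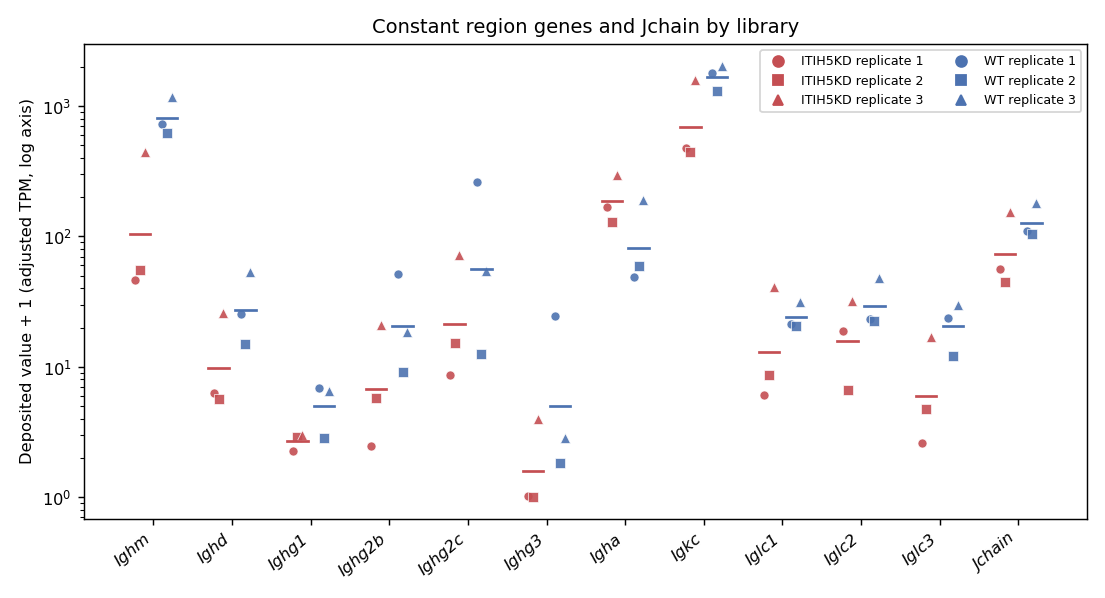
Deposited value plus 1 (log axis) of the 11 constant genes and Jchain, 1 point per library (ITIH5KD left in red, WT right in blue, shape by replicate number), with a line at the mean on the log scale. For Ighm the ITIH5KD libraries (45.1 to 446) lie below the WT libraries (623.5 to 1170), while Igha overlaps (129 to 292 in ITIH5KD, 47.6 to 190 in WT).

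The mixture of classes separated the groups. Igha made up 73.1%, 61.7% and 34.0% of the summed heavy constant level in the ITIH5KD libraries, against 4.18%, 8.15% and 12.7% in the WT libraries. Ighm made up 19.9%, 26.0% and 51.9% in the ITIH5KD libraries, against 63.9%, 86.8% and 78.5% in the WT libraries. Neither share overlapped between the groups, and replicate 3 was the ITIH5KD library nearest to WT in both. The IgG genes together took 4.63%, 10.0% and 11.2% in the ITIH5KD libraries, against 29.8%, 3.13% and 5.25% in the WT libraries, which overlapped. The share of Ighd ran from 2.22% to 2.90% in the ITIH5KD libraries and from 1.94% to 3.53% in the WT libraries.

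A ratio of 2 genes within a library, taken on log2 of value plus 1, depends on the scale between libraries only where a gene is low. The log2 ratio of Igha to Ighm was 1.86, 1.23 and -0.61 in the ITIH5KD libraries, against -3.91, -3.39 and -2.62 in the WT libraries. The difference was 4.13 (exact two-sided permutation p = 0.1, adjusted p = 0.267 over 8 ratios), and 3 libraries against 3 cannot give a p below 0.1. The log2 ratio of Jchain to Ighm was 0.29, -0.30 and -1.53 in the ITIH5KD libraries, against -2.74, -2.59 and -2.69 in the WT libraries, a difference of 2.16 with the same p. That of Ighd to Ighm was also higher in all ITIH5KD libraries (difference 1.47, exact permutation p = 0.1). These ratios share Ighm, which was itself lower in every ITIH5KD library, and are not independent of each other. The ratios of the 4 IgG genes to Ighm overlapped between the groups (differences 1.30 to 2.06, exact permutation p from 0.2 to 0.4), and that of Ighg3, 1.30, was -0.40 with a pseudocount of 0.1. The ratio of Iglc1 to Igkc did as well (difference 0.38, exact permutation p = 0.3).

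**Figure D2:**
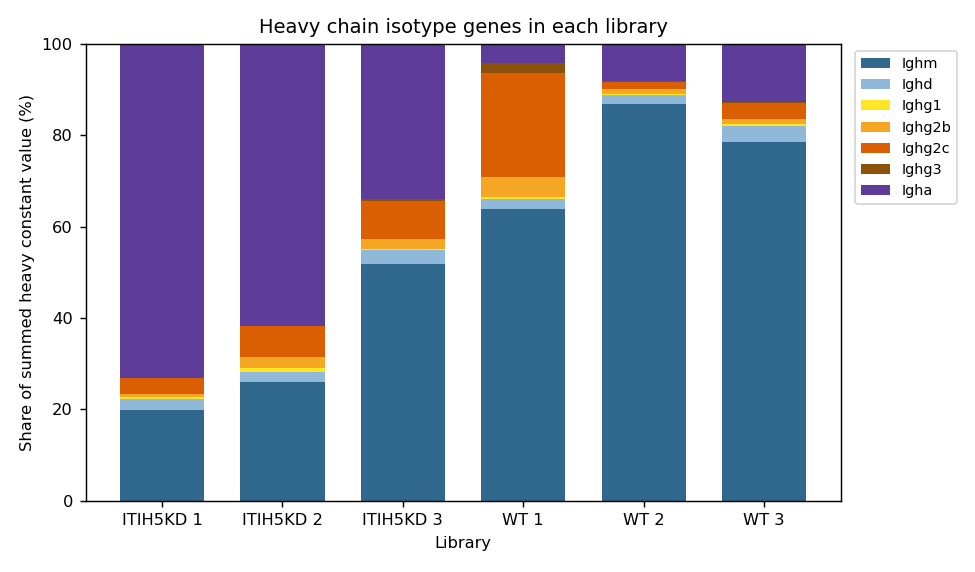
Share of the summed heavy constant level (%, stacked bars) held by each heavy constant gene, 1 bar per library, ITIH5KD left of WT. Igha holds 34.0% to 73.1% of the bars in ITIH5KD and 4.18% to 12.7% in WT, Ighm holds the larger part in WT, and WT replicate 1 holds the largest Ighg2c part.

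The variable segments of the phosphatidylcholine-binding pairs were near the floor in 2 ITIH5KD libraries and well above it in every WT library. Igkv14-126 stood at 1.49, 0.593 and 92.8 in the ITIH5KD libraries, against 214, 194 and 457 in the WT libraries. Its heavy partner Ighv11-2 stood at 1.15, 0.663 and 29.9 in the ITIH5KD libraries, against 83.1, 57.2 and 214 in the WT libraries. Neither overlapped, and in both segments the libraries fell in the same order: ITIH5KD replicates 2, 1 and 3, then WT replicates 2, 1 and 3. The summed level of all members had nearly this order, with only ITIH5KD replicate 3 and WT replicate 2 exchanged, so the order is not particular to these segments. The log2 difference was -5.22 for Igkv14-126 (SE 1.43, limma adjusted p = 0.296) and -4.41 for Ighv11-2 (SE 1.10, limma adjusted p = 0.296).

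Igkv4-91, of the other pair, stood at 2.18, 0.718 and 49.9 in the ITIH5KD libraries, against 81.1, 61.9 and 129 in the WT libraries. Its heavy partner Ighv12-3 stood at 0.467, 0 and 10.97 in the ITIH5KD libraries, against 28.4, 10.2 and 48.3 in the WT libraries. Igkv4-91 kept the same library order with no overlap, while Ighv12-3 overlapped by a narrow margin, WT replicate 2 lying just under ITIH5KD replicate 3. The log2 difference was -3.75 for Igkv4-91 (SE 1.15, limma adjusted p = 0.297) and -3.28 for Ighv12-3 (SE 0.96, limma adjusted p = 0.296). Without ITIH5KD replicate 3, Igkv14-126 (-7.07), Ighv11-2 (-5.75) and Igkv4-91 (-5.23) passed with limma adjusted p of 0.00534, 0.0222 and 0.00783. With Ighm they were the 4 of 161 tested members that did, against 13 of 13948 tested genes. That setting leaves out the ITIH5KD library nearest to WT in these segments, which narrows the spread, and with all libraries no member passed.

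Shares within a class take out the total level. Igkv14-126 held 0.442%, 0.227% and 9.23% of the kappa variable level in the ITIH5KD libraries, against 16.7%, 22.4% and 19.7% in the WT libraries. Ighv11-2 held 0.526%, 0.544% and 6.68% of the heavy variable level in the ITIH5KD libraries, against 14.8%, 21.7% and 16.5% in the WT libraries. Igkv4-91 held 0.645%, 0.274% and 4.96% in the ITIH5KD libraries, against 6.33%, 7.14% and 5.55% in the WT libraries, and Ighv12-3 held 0.213%, 0% and 2.45% in ITIH5KD, against 5.04%, 3.86% and 3.72% in WT. All 4 shares were lower in every ITIH5KD library than in any WT library, and among the ITIH5KD libraries replicate 3 had by far the highest. The WT libraries differed little from each other in these shares, although their summed kappa variable level ran from 867.3 to 2320.4.

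**Figure D3:**
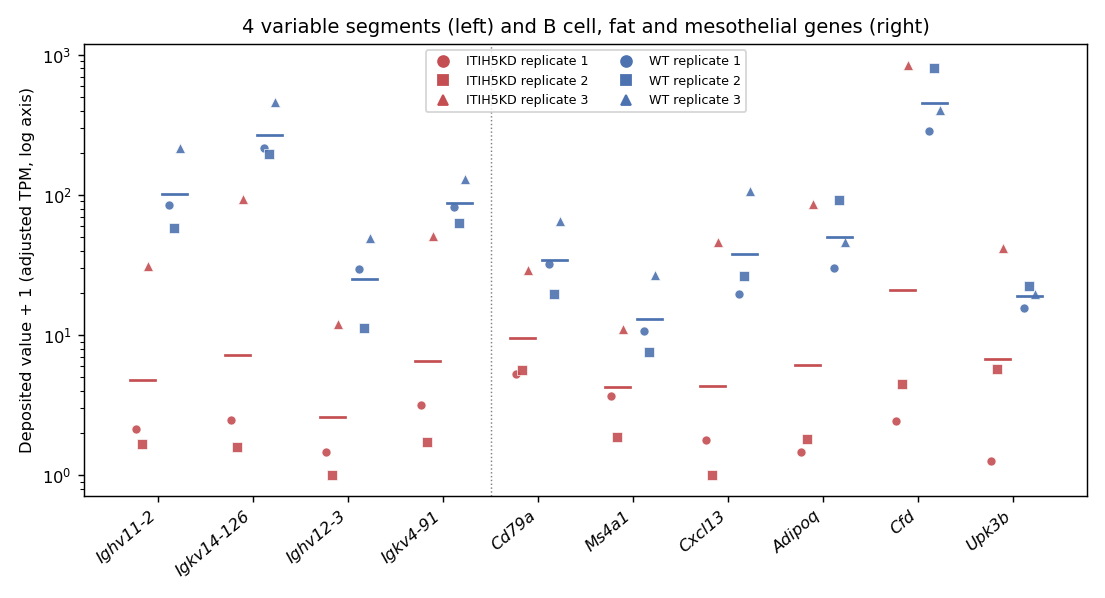
Deposited value plus 1 (log axis) of the 4 segments of the phosphatidylcholine-binding pairs (left of the dotted line) and of B cell, attractant, fat and mesothelial genes (right of it), 1 point per library with a line at the mean on the log scale, ITIH5KD left of WT. ITIH5KD replicates 1 and 2 lie near the bottom for nearly all genes shown, and ITIH5KD replicate 3 lies near or within the WT range.

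All 12 of the most abundant heavy segments had a negative difference, from -0.14 to -4.41, though most overlapped between the groups. Ighv1 is the largest heavy variable family of the mouse, and its 40 segments held 65.8%, 63.8% and 63.7% of the heavy variable level in the ITIH5KD libraries, against 49.3%, 36.1% and 29.9% in the WT libraries. These shares did not overlap, and unlike most measures here ITIH5KD replicate 3 matched replicates 1 and 2. Ighv7-1 stood at 2.63, 0 and 0.99 in the ITIH5KD libraries, against 13.6, 23.6 and 21.4 in the WT libraries. It was lower in every ITIH5KD library, replicate 3 included (log2 difference -3.38, SE 0.45, limma adjusted p = 0.296). Ighv1-26, Ighv9-3, Ighv1-55, Ighv3-6, Ighv7-3 and Ighv1-53 overlapped between the groups, with log2 differences of -0.87 to -1.98 and limma adjusted p of 0.381 to 0.588. Ighv1-9 (-0.16) and Ighv1-80 (-0.14) were near 0 and turned positive when single libraries were left out.

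Of the 12 most abundant kappa segments, 10 had a negative difference. Igkv15-103 stood at 15.4, 7.55 and 15.0 in the ITIH5KD libraries, against 38.0, 71.7 and 43.2 in the WT libraries. Like Ighv7-1 it was lower in all ITIH5KD libraries, with replicate 3 close to replicate 1 (log2 difference -1.94, SE 0.32, limma adjusted p = 0.296). Igkv12-89 stood at 1.63, 0.847 and 5.97 in the ITIH5KD libraries, against 7.63, 164 and 35.3 in the WT libraries, which did not overlap, with WT replicate 2 far above the rest (log2 difference -3.52, SE 1.02). Igkv1-117, Igkv10-96, Igkv19-93 and Igkv4-55 overlapped, with log2 differences of -0.77 to -1.47. Without WT replicate 3 the difference of Igkv4-55 was 0.00.

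The positive 2 were Igkv6-15 and Igkv8-30. Igkv8-30 stood at 24.3, 23.1 and 26.95 in the ITIH5KD libraries, against 32.3, 7.21 and 20.7 in the WT libraries, nearly level among the ITIH5KD libraries. As a share of kappa variable it held 7.19%, 8.83% and 2.68% in ITIH5KD, against 2.52%, 0.831% and 0.891% in WT, with no overlap. Igkv6-15 held 4.43%, 3.29% and 9.04% in ITIH5KD, against 0.904%, 1.15% and 0.665% in WT, also with no overlap. The deposited levels of both overlapped, with log2 differences of 0.51 for Igkv8-30 and 0.88 for Igkv6-15 (limma adjusted p = 0.580 and 0.565). Without ITIH5KD replicate 3 the difference of Igkv6-15 was -0.08, and without WT replicate 2 that of Igkv8-30 was -0.06.

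The lambda locus has few variable segments in the mouse, and 3 were in the table. Iglv1 stood at 19.8, 18.98 and 88.8 in the ITIH5KD libraries, against 97.7, 54.2 and 136 in the WT libraries, with ITIH5KD replicate 3 inside the WT range (log2 difference -1.44, SE 0.61, limma adjusted p = 0.336). Iglv2 and Iglv3 overlapped, with log2 differences of -0.70 and 0.14, and that of Iglv3 turned negative without ITIH5KD replicate 1 or WT replicate 1. Iglv1 held 48.6%, 66.7% and 79.5% of the lambda variable level in the ITIH5KD libraries, against 85.5%, 78.5% and 81.0% in the WT libraries. ITIH5KD replicate 3 again fell within the WT range.

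Joining segments are short and their levels are low. Ighj4 was the single member that was higher in every ITIH5KD library, at 11.4, 6.73 and 7.99, against 0.959, 1.85 and 5.31 in the WT libraries (log2 difference 1.54, SE 0.42, limma adjusted p = 0.296). Iglj3 was lower in every ITIH5KD library, at 0.035, 0 and 0, against 4.92, 1.88 and 2.80 in the WT libraries. The other 10 joining segments overlapped between the groups, and 9 of them had a negative difference. The 4 diversity segments were at or near 0 outside 1 library each, WT replicate 3 for Ighd2-3 (8.41), Ighd1-1 (6.54) and Ighd4-1 (6.54), and ITIH5KD replicate 3 for Ighd2-4 (2.996).

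Single libraries carried segments of their own. By a rule set after the values were seen, a level of at least 20 and at least 5 times that of every other library, 8 of the 175 variable segments stood out. In WT replicate 3, Igkv1-135 reached 519.5, with 35.9 as the next highest, and Ighv8-8 reached 256, with 8.48 as the next highest. These were the top kappa and the top heavy segment of that library, with 22.4% and 19.7% of their classes. WT replicate 3 also held Ighv7-3 (46.3) and Ighv2-5 (22.4). WT replicate 1 held Igkv6-25 at 202 (next 13.5), WT replicate 2 held Igkv4-74 at 61.3 (next 4.64), and ITIH5KD replicate 3 held Igkv6-15 at 90.9 (next 15.4) and Igkv4-80 at 27.0 (next 4.62). ITIH5KD replicates 1 and 2 held none, but their summed variable levels were the lowest, so few of their segments could reach the level of 20. Their highest variable segments reached 25.8 and 23.1. The rule was not applied to other genes. For Igkv6-15, as given above, and for Ighv8-8 and Igkv6-25 the direction rested on 1 library: without WT replicate 3 the log2 difference of Ighv8-8 was 1.08 in place of -1.18, and without WT replicate 1 that of Igkv6-25 was 0.90 in place of -0.96. Igkv1-135 overlapped as well (-2.24, SE 1.74, limma adjusted p = 0.528).

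**Figure D4:**
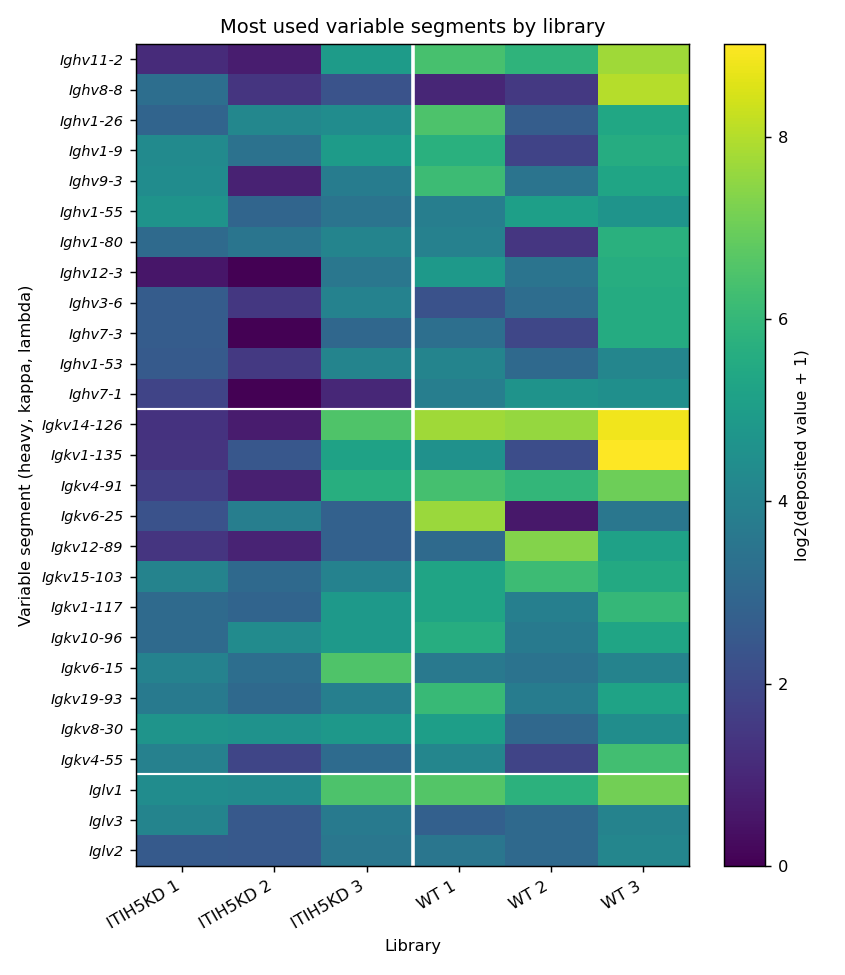
Levels of the 12 most abundant heavy, the 12 most abundant kappa and the 3 lambda variable segments (rows) in the 6 libraries (columns, ITIH5KD left of WT), as log2 of the deposited value plus 1. Igkv14-126, Igkv4-91 and Ighv11-2 are bright in ITIH5KD replicate 3 and in all WT libraries, while Ighv8-8, Igkv1-135 and Igkv6-25 are brightest by far in 1 WT library each.

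Segment use was spread more evenly in the ITIH5KD libraries. The effective number of segments (inverse Simpson index) is how many equally used segments would give the same concentration of use. For kappa segments it was 29.2, 25.5 and 28.7 in the ITIH5KD libraries, against 13.9, 9.33 and 10.1 in the WT libraries. The top 5 kappa segments together held 28.1%, 35.4% and 30.9% in ITIH5KD, against 49.6%, 63.8% and 53.7% in WT. Neither overlapped, and ITIH5KD replicate 3 lay with replicates 1 and 2 although its summed kappa variable level (1005.1) was within the WT range.

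For heavy segments the effective number was 22.5, 18.1 and 32.8 in the ITIH5KD libraries, against 12.5, 12.1 and 12.6 in the WT libraries. The top 5 heavy segments held 37.9%, 43.2% and 27.8% in ITIH5KD, against 57.7%, 51.8% and 47.7% in WT. The groups did not overlap in either measure, but the difference in effective number, 12.08, was 2.69 when members with a mean under 5 were left out. With the 4 segments of the phosphatidylcholine-binding pairs removed, a step added after the data were seen, the kappa effective number was 28.6, 25.2 and 30.9 in ITIH5KD, against 14.7, 9.56 and 9.74 in WT. The heavy one was then 22.2, 17.9 and 32.5 in ITIH5KD, against 11.51, 16.2 and 12.6 in WT. Neither effective number overlapped between the groups. The heavy top 5 share did overlap without these segments (38.1%, 43.45% and 27.2% in ITIH5KD, against 54.0%, 44.7% and 43.33% in WT). Fewer kappa segments rounded to at least 1 step in 2 of the ITIH5KD libraries (52, 54 and 72, against 73, 65 and 82 in WT), and as reads per library are unknown, the part of sampling in these measures was not tested.

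**Figure D5:**
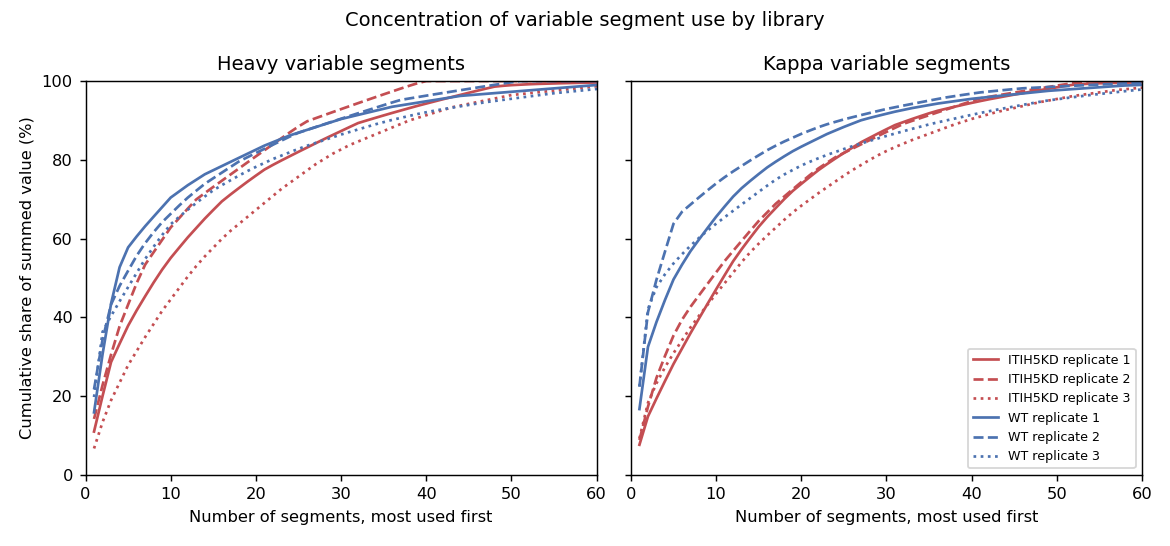
Cumulative share (%) of the summed heavy variable (left) and kappa variable (right) level held by the most used segments, counted from the most used, 1 line per library (ITIH5KD red, WT blue, line style by replicate). At the top 5 kappa segments the ITIH5KD lines stand at 28.1% to 35.4% and the WT lines at 49.6% to 63.8%, and further right some lines cross.

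Genes of the cells that make immunoglobulin had mostly negative differences as well. Of 17 B cell genes, 16 had a negative difference, with a median of -1.04, against 0.0 over all tested genes, and 4 were lower at an unadjusted p under 0.05, as were 6.55% of all tested genes. Cd79a, the signalling partner of the B cell receptor, stood at 4.25, 4.63 and 27.95 in the ITIH5KD libraries, against 31.3, 18.7 and 63.7 in the WT libraries. As with the immunoglobulin genes, ITIH5KD replicates 1 and 2 were below the WT range and replicate 3 within it (log2 difference -1.86, SE 0.71, limma adjusted p = 0.314). Cd79b (-1.19), Cd37 (-0.53) and Tnfrsf13c (-1.51), the receptor for the survival factor BAFF, overlapped likewise.

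Of 14 tested plasma cell and secretion genes, 13 had a negative difference, with a median of -0.36, and 3 were lower at an unadjusted p under 0.05 (6.55% of all tested genes). Sdc1, the plasma cell surface proteoglycan that other cells also make, stood at 40.4, 71.3 and 72.9 in the ITIH5KD libraries, against 95.8, 96.9 and 101 in the WT libraries. Its groups did not overlap (log2 difference -0.71, SE 0.22, limma adjusted p = 0.298). Nor did those of Xbp1, the secretory pathway regulator, though by little (155, 185 and 197 in ITIH5KD, 204, 205 and 198 in WT, log2 difference -0.18). Ssr4 (-0.16), Creld2 (-0.13) and Tent5c (-0.51) overlapped.

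Of 10 genes of immunoglobulin transcription, 7 had a negative difference and the median was -0.19. At an unadjusted p under 0.05, 1 of the 10 was lower, near the share of all tested genes (6.55%). Pou2af1, the B cell coactivator, was at -1.22 and Spib at -1.04, while Spi1 (-0.52), Ets1 (0.29) and Nfkb1 (-0.05), which many immune cells express, overlapped. Of 8 tested germinal centre and class switching genes 7 had a negative difference, with a median of -0.17, among them Bcl6 (-0.40, no overlap) and S1pr2 (-0.32), with Fas at 0.08 and Apobec3 at -0.16. Of 4 tested V(D)J recombination genes 2 had a negative difference, with a median of -0.05. Of these the pre-B gene Vpreb3 was lower without overlap (-1.13, limma adjusted p = 0.296), but close to the limit of what could be read. It stood at 0.047, 0.954 and 0.997 in ITIH5KD, against 1.95, 2.85 and 2.77 in WT. Xrcc4 (-0.15), Dclre1c (0.21) and Lig4 (0.05) overlapped.

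Of 11 tested receptors and transporters of antibody, 10 had a negative difference, with a median of -0.61, and 5 were lower at an unadjusted p under 0.05 (6.55% of all tested genes). Fcgr1, the high-affinity IgG receptor of macrophages, stood at 21.7, 44.3 and 39.9 in the ITIH5KD libraries, against 71.4, 51.7 and 62.8 in the WT libraries, with no overlap (log2 difference -0.84, SE 0.26, limma adjusted p = 0.298). Fcgr3 (-0.61), Fcer1g (-0.38) and the IgG transport receptor Fcgrt (-0.23) overlapped. All 8 macrophage genes were also negative (median -0.57), and 4 were lower at an unadjusted p under 0.05 (6.55% of all tested genes). Mrc1 (-0.74), Adgre1 (-0.92), Lyz2 (-0.78) and C1qb (-0.54) did not overlap and C1qa (-0.43) did.

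Of 12 tested attractants and survival factors of B cells, 10 had a negative difference, with a median of -0.43. Cxcl13, which draws B cells into follicles and body cavity fat, stood at 0.796, 0 and 44.9 in the ITIH5KD libraries, against 18.5, 25.3 and 105 in the WT libraries. ITIH5KD replicates 1 and 2 were at the floor and replicate 3 was within the WT range (log2 difference -3.12, SE 1.41, limma adjusted p = 0.350). Cxcl12 (-0.39) and Il6 (-0.43) were lower without overlap and Cxcr4 (-0.24) overlapped. Of 4 tested lymphoid tissue genes 3 had a negative difference, with a median of -0.21, and all 3 overlapped. Ccl21a, which lymphatic vessels make, was higher in every ITIH5KD library, at 6.96, 6.74 and 13.98, against 4.86, 3.66 and 6.29 in the WT libraries (log2 difference 0.74, limma adjusted p = 0.318), and Chst4 was near 1 step in most libraries.

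Most markers of tissue around the heart were low in the same 2 ITIH5KD libraries, but the other libraries ranked differently. Cfd was highest in ITIH5KD replicate 3 and WT replicate 2, while the summed immunoglobulin level was highest in WT replicate 3. Of 9 tested adipocyte genes 7 had a negative difference, with a median of -2.13, and 0 were lower in limma at an unadjusted p under 0.05 (0 adjusted). Cfd, an abundant fat cell transcript, stood at 1.44, 3.47 and 852 in the ITIH5KD libraries, against 285, 810 and 402 in the WT libraries, and Adipoq, Cidec and Car3 showed the same 2 low libraries. The summed level of the list was 1067, 244 and 2062 in ITIH5KD, against 853, 1761 and 1018 in WT, the first of these set by Fabp4 (1032), which blood vessels also express. All 8 mesothelial genes were negative (median -1.22), Upk3b, Upk1b, Msln and Krt8 among them, and their summed level was 20.1, 36.3 and 181 in ITIH5KD, against 89.6, 132 and 114 in WT. Most fat and mesothelial genes were low in ITIH5KD replicates 1 and 2 and not in replicate 3. Cidea, a gene of brown fat, ran the other way at 29.5, 14.4 and 7.98 in ITIH5KD, against 13.7, 10.3 and 11.49 in WT. Mesothelial Wt1 overlapped at 13.8, 5.69 and 17.97 in ITIH5KD, against 10.7, 12.2 and 17.3 in WT. The part of adherent fat or lining tissue in the immunoglobulin differences was not tested.

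Other cell types showed smaller or opposite differences. Of 10 T cell genes 9 were negative, with a median of -0.17, and Trac (-0.07), Trbc2 (-0.07), Trbc1 (-0.17), Cd4 (-0.37) and Cd3e (-0.29) overlapped. All 8 heart muscle genes were positive (median 0.85), with summed levels of 19440, 10350 and 6200 in ITIH5KD, against 7198, 7347 and 5874 in WT, Myh6 (0.99) and Myl2 (1.04) not overlapping and Actc1 (0.31) and Tnnt2 (0.44) overlapping. Of 7 tested blood genes 5 were positive (median 1.09, Hbb-bs 1.34, Hba-a1 1.44, Hba-a2 1.09), while the platelet gene Pf4 was negative (-0.78). Of 6 fibroblast genes 4 were negative (median -0.19), with Col1a1 (-0.41), Col1a2 (-0.33) and Col3a1 (-0.24) overlapping. Across all 15 of these lists, 0 genes passed limma's adjusted threshold, and the part of muscle and blood content in the immunoglobulin levels was not tested.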

How the data were processed

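Poly(A)-enriched RNA of infarcted myocardium was sequenced, 3 libraries labelled ITIH5 knockdown and 3 WT, 7 days after ligation. The labels name 2 library kits without saying which library used which. Per the submitters' processing notes, the genome build was mm10. Aligner, quantifier, strand setting and adjustment between libraries are not named in any source used.

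The authors deposited 1 score per gene and library. The deposited file calls this score TPM, but it was adjusted between libraries before deposit, as its values show: they lie in steps of 0.889 to 1.163, as whole-number TPM later rescaled would give, so no count model was used. ITIH5KD replicate 1 had 1077 values above 0 and under 0.2, 67 of them members, and the other libraries had 0. For 8 members listed at 0 in all other libraries but WT replicate 3, the WT replicate 3 value was 77.9 to 82.9 times that of ITIH5KD replicate 1, so such values below 1 step depend on other libraries. No 2 libraries were identical (Pearson correlations 0.947 to 0.984 on the log2 scale over genes, which are not replicates).

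Of rows sharing a symbol, 6 were left out, leaving 16199 symbols. The members and lists were chosen with earlier results of these data known. Groups were compared on log2(value + 1), which understates changes of low genes, for 14025 genes with a mean of at least 1, with limma 3.58.1 in R 4.3.3 (intensity trend, no covariate, Benjamini-Hochberg at 0.05). This test was planned for TPM and kept for the adjusted score. Ratios of 2 genes used an exact two-sided permutation test (scipy 1.17.1). The fit was tested on simulated data. Named were all constant genes and Jchain, the 12 heavy and 12 kappa segments with the highest mean, all lambda segments and Itih5, and of each list the 3 most abundant genes and the 2 with the smallest p. Others are named after their values were seen. Some genes stand in several lists.

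Coordinates and sequences come from GENCODE M21 (mm10), which held all 203 members. Of these, 13 overlap another annotated gene, Igkc, Iglv1 and the 3 Iglc genes among them, and reads of overlapping or antisense genes cannot be told apart where strand use is not stated. Of the 27 named variable segments, 7 share no 50-base run with another segment and 4 share more than 50% of theirs.

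Alternatives covered scale, pseudocount, filter, trend, block and leaving out each library.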

Additional observations from a re-analysis of the deposited data

How the results depend on the processing

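Gene differences kept their direction and side of the threshold in 528 of 544 alternatives over 39 genes. Scaling the columns to plain TPM moved the median of all genes by -0.13. Calls over all genes after adjustment ran from 0 to 13 when single libraries were left out (13 without ITIH5KD replicate 3, 2 without WT replicate 2), and calls at an unadjusted p under 0.05 from 995 to 2585, against 2081. Member calls after adjustment ran from 0 to 4 (the 2 without WT replicate 2 were Igkv3-2, -2.78, and Igkv4-70, -3.66). Member calls at an unadjusted p ran from 21 to 48, against 27. With the replicate block they came to 65 (58 lower, 7 higher), with 0 after adjustment. The shared numbers are not known to pair the libraries: deviations from the group means correlated at 0.06, 0.06 and 0.14 for the same number, not all over 0.1, and WT replicate 1 correlated best with ITIH5KD replicate 2 (0.0595, against 0.0559 with replicate 1). The cause was not tested.

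Left-out libraries turned 8 named segments, whose log2 differences ran from -2.44 to 1.08 for Ighv8-8, -1.44 to 0.52 for Ighv1-9, -1.28 to 0.87 for Ighv1-80, -2.64 to 0.90 for Igkv6-25, -0.083 to 1.54 for Igkv6-15, -0.061 to 0.949 for Igkv8-30, -2.20 to 0.004 for Igkv4-55 and -0.19 to 0.59 for Iglv3. With members of a mean of at least 5, the differences in use were 2.69 for the heavy effective number (12.08 over all members), -6.33 percentage points for the heavy top 5 share (-16.1) and 12.95 for the kappa effective number (16.72), as fewer low segments count. Without the 4 paired segments, chosen after seeing the data, the kappa top segment share differed by -16.7 points (-11.94 before) and the top 5 share by -17.45 (-24.22). The log2 ratio of Ighg3 to Ighm was -0.40 at a pseudocount of 0.1, against 1.30, with Ighg3 near 0 in 2 ITIH5KD libraries. The share of the IgG genes rested on WT replicate 1 (29.8%). Without that library the WT values were 3.13% and 5.25%, both under the ITIH5KD mean of 8.61%, so its direction turned. Other ratios, class sums and the other shares tried kept their direction. Rounding to steps near 1 limits what segments at low levels can show.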
